A study of Mus musculus with 28 samples.

Results

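Foxa1, Foxa2 and Foxa3 are the 3 Foxa genes of the mouse, also called hepatocyte nuclear factor 3 alpha, beta and gamma. They were taken as every probe that the array annotation gives to these symbols, which was 4 probes of 25697, and they are 3 of the 16593 gene symbols on the array. The study measured RNA from mouse embryos on Illumina MouseRef-8 v2 bead arrays in 28 samples of 9 groups. At the earlier stage (E8.25), in embryos with 4 to 6 somites, definitive endoderm, ectoderm and mesoderm had 3 arrays each. E is the embryonic day. At E11.5 the endoderm of the esophagus, lung, stomach, liver and intestine had 3 arrays each and that of the pancreas had 4. Per the series design, organ domains of 10 to 12 embryos were pooled and endoderm was isolated by flow cytometry. This wording describes organ endoderm and cannot hold for the ectoderm and mesoderm samples. The sources used here do not give the sorting marker, the strain or the way ectoderm and mesoderm were obtained, and no group was labelled with a mutation or a treatment.

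Foxa proteins carry a winged-helix DNA-binding domain and are called pioneer factors because they can bind their sites in closed chromatin ahead of other regulators. In the mouse embryo Foxa2 is switched on in the node, notochord, floor plate and early endoderm, and Foxa1 and Foxa3 follow in the endoderm. Foxa1 and Foxa2 act together in the start of liver development, and all 3 were first known as regulators of liver genes.

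Each gene is described through 1 probe. On build GRCm38.p6, Foxa1 lies on chromosome 12 from 57540628 to 57548029 (probe ILMN_1237195), Foxa2 on chromosome 2 from 148042877 to 148046969 (probe ILMN_1246216) and Foxa3 on chromosome 7 from 19013283 to 19023539 (probe ILMN_1228748), all on the minus strand. The other Foxa2 probe, ILMN_1229325, was not above the detection threshold on any of the 28 arrays and is not used for the values that follow. The annotated span of Ttc6, on the same chromosome, overlaps that of Foxa1.

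Because the 3 genes differed in where they were read, their start regions are shown for reference. The 250 bases before each RefSeq start site were searched for 4 forkhead words on both strands. They were TGTTTAC, held by 3.17% of 32851 mouse windows of this length, TGTTGAC, held by 2.07%, TATTTAC, held by 2.73%, and TATTGAC, held by 1.28%, and 8.77% of windows held at least 1 of the 4. No base was shared by 2 matches in the Foxa windows. The TATA word TATAAA was searched on the gene's strand alone and was held by 7.59%. The Foxa1 window held TGTTTAC once, on the reverse strand 141 to 135 bases before the start, and this window lies inside the annotated span of the gene because longer transcripts start upstream. The most upstream of 3 Foxa2 windows held none of the words, and the window of the innermost start held TATTGAC. The Foxa3 window held TATAAA 36 to 31 bases before the start. A match is a description of letters and not a bound site. GC content was 62% in the Foxa1 window, 50.8% in the most upstream Foxa2 window and 68.8% in the Foxa3 window, against a median of 52.4% over all windows. The sequences, from RefSeq on GRCm38.p6 and read 5′ to 3′ on the gene's strand, have the matched words in capitals. Only the 30 bases round the match are shown for Foxa1.
Foxa1, chr12:57546235-57546264, minus strand: ttatactgctttGTAAACAaagtgagggcc
Foxa2, chr2:148046970-148047219, minus strand: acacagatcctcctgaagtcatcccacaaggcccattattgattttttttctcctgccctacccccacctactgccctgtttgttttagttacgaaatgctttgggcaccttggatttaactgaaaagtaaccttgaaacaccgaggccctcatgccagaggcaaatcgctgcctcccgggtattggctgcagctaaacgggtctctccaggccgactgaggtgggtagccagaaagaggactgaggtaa
Foxa3, chr7:19023540-19023789, minus strand: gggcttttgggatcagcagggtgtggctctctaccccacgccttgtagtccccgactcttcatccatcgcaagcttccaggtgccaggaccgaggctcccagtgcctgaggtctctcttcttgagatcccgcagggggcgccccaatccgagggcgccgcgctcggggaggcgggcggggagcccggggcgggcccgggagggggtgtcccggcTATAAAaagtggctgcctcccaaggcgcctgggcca

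Values are log2 of background-corrected, quantile-normalised intensity, and errors are SD over arrays unless called SE, the standard error of a fitted difference. A probe was above background on an array when it passed the 99th percentile of 1362 sensory receptor probes there. A gene was called different when limma's adjusted p (Benjamini-Hochberg over 9651 genes) was under 0.05 and the change at least 2-fold. Where a probe was above background on no array of the dimmer group, the fold is given as "at least", the brighter group against the higher of the dim probe's own value and the lowest signal above the threshold on each array. For the mean of the organs this was done when any organ had no array above background. Intensities of different probes are not compared, and precision is limited by how few arrays a group has. The SE and adjusted p of a difference rest on a spread shared by all groups. They do not reflect a group whose own arrays vary more than the rest. In these bulk samples, fewer expressing cells and less RNA per cell cannot be told apart.

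On 26 of the 28 arrays 10843 to 12862 probes were above the threshold, against 7083 on pancreas array 3 and 9664 on intestine array 3, whose deposited intensities fell below 0 for 11861 and 7931 probes. Arrays of a group correlated with each other at 0.946 to 0.995 over probes, and 27 of the 28 were nearest to an array of their own group. On 8 arrays, among them all 6 of mesoderm and liver, no intensity was over 20000. Markers of each organ were present in it: all 4 esophageal, 4 lung, 4 stomach and 6 pancreatic markers, 4 of 5 intestinal and 9 of 11 hepatocyte markers on the array were above background on every array of their own organ. In liver Alb was above background on 1 of 3 arrays and Fgb on none. Hepatocyte markers summed to 65937.5 to 84654.8 in liver, 24091.2 to 32013.9 in pancreas and 17609.5 to 22686.5 in intestine. Their sums were lower in stomach, esophagus and lung. In E8.25 endoderm 6 of 7 definitive endoderm markers were above background on all 3 arrays, and Cer1 was on 1. The stomach list did not set that organ apart by its sum, which was 808 to 974 in stomach and 2087 to 2420 in esophagus, where Sox2 and Foxq1 were brighter. Barx1 and Gata4, also on that list, were above background on all 3 stomach arrays and on 1 esophagus array each. Markers of other cell types were not even across groups.

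**Figure D1:**
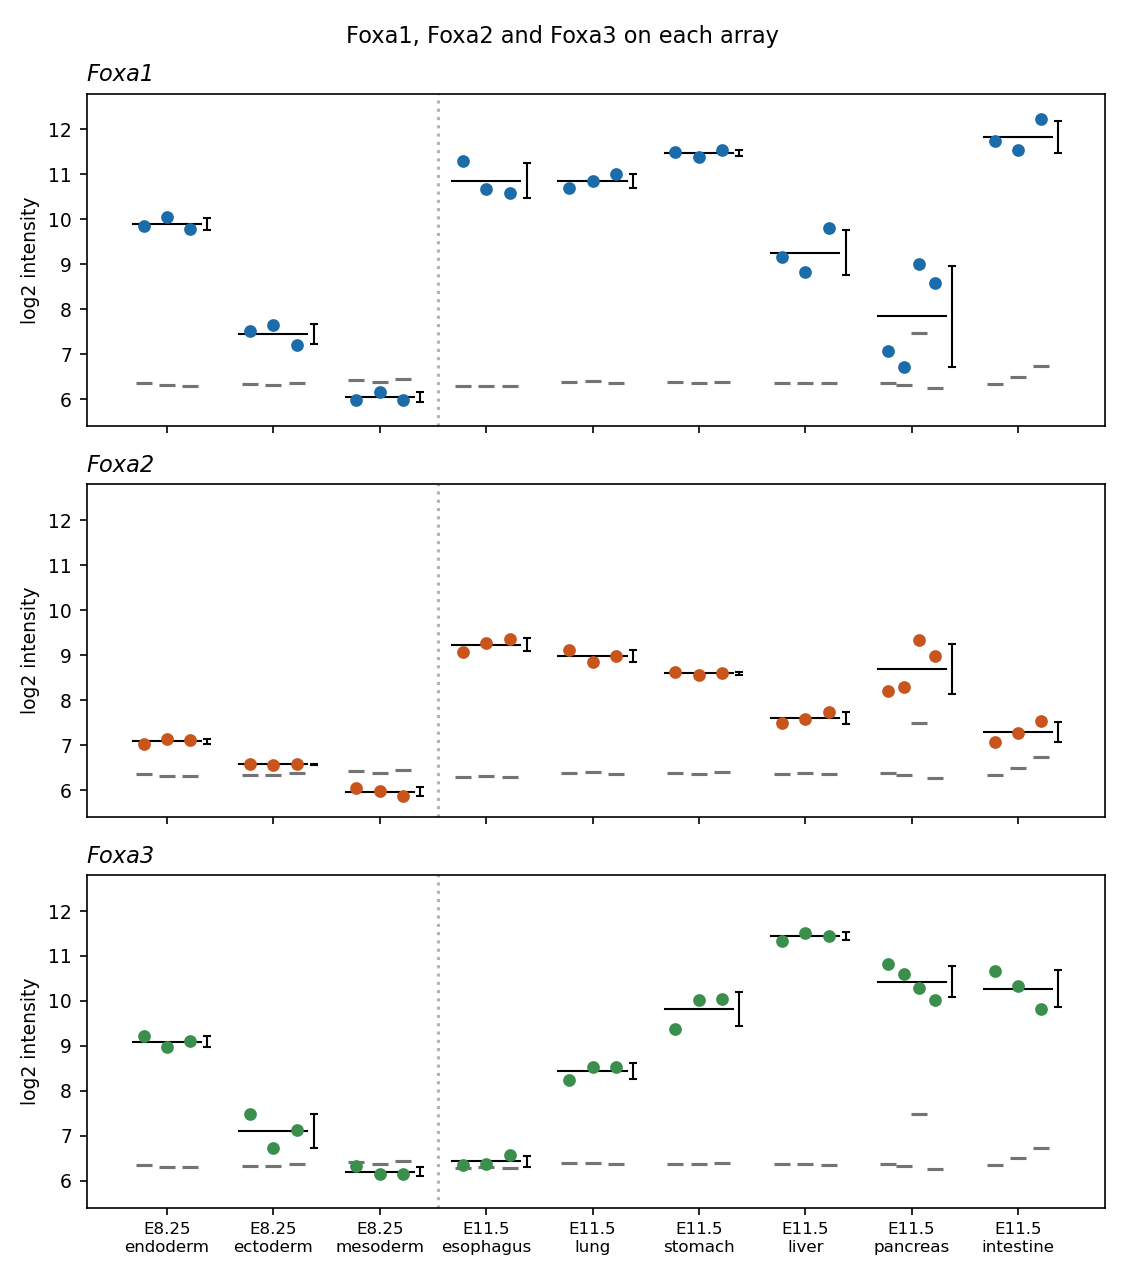
Log2 intensity of the Foxa1, Foxa2 and Foxa3 probes on each of 28 arrays, by group (horizontal axis, E8.25 left of the dotted line). Points are arrays, long black lines group means, vertical bars SD and short grey marks each array's detection threshold. All 3 genes lie below the threshold in mesoderm, and their highest group differs: intestine for Foxa1 at 11.84, esophagus for Foxa2 at 9.23 and liver for Foxa3 at 11.44.

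Among the E8.25 germ layers, each of the 3 Foxa genes had its highest mean in definitive endoderm and its lowest in mesoderm, where none was above background. Foxa1 read 9.86, 10.05 and 9.79 on the endoderm arrays, 7.52, 7.65 and 7.20 in ectoderm and 5.98, 6.17 and 5.98 in mesoderm. The 3 germ layers did not overlap. Foxa1 was higher in endoderm than in ectoderm by 2.44 ± 0.39 (SE; 5.44-fold, adjusted p = 9.31e-05), and at least 11.2-fold higher than in mesoderm (adjusted p = 5.19e-08). It was at least 2.06-fold higher in ectoderm than in mesoderm (adjusted p = 0.00917). That last call was lost when the intensity class of the array entered the fit (measured difference 1.31, adjusted p = 0.109).

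Foxa3 gave 9.22, 8.98 and 9.10 in endoderm, 7.48, 6.72 and 7.14 in ectoderm and 6.33, 6.14 and 6.15 in mesoderm. Its endoderm arrays stood well above both other layers. The endoderm exceeded ectoderm by 1.99 ± 0.21 (SE; 3.96-fold, adjusted p = 5.16e-07) and mesoderm at least 6.43-fold (adjusted p = 2.47e-10). Ectoderm and mesoderm did not overlap, and ectoderm was at least 1.62-fold higher (adjusted p = 0.00282). The measured difference, 0.91, did not reach the limit for a call, and because the mesoderm side is only a bound this leaves the size of the fold unknown. The measured difference passed the limit without background correction, with receptor probes as controls, with a smaller offset or without ectoderm array 2, at 1.10 to 1.65.

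Foxa2, the family member with a known role in the node and floor plate as well as the endoderm, was read at 7.02, 7.13 and 7.10 in endoderm, 6.58, 6.55 and 6.58 in ectoderm and 6.05, 5.98 and 5.87 in mesoderm. The layers were ordered as for the other two genes, with narrow gaps and no overlap. Endoderm exceeded mesoderm at least 1.60-fold (measured difference 1.12 ± 0.19, SE, adjusted p = 9.98e-05), a measured difference of 0.95, no longer called, with no normalisation between arrays. The difference between endoderm and ectoderm was 0.51 ± 0.19 (SE, adjusted p = 0.110) and was not called. Ectoderm was at least 1.12-fold higher than mesoderm (adjusted p = 0.0234), a bound that does not settle whether the fold reached the limit. The measured difference of 0.60 was not called, and it passed both limits without background correction, with receptor probes as controls or with a smaller offset, at 1.10 to 1.43.

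Against the whole array, 2 of the 3 Foxa genes were called between endoderm and ectoderm, where 2.83% of all genes were. All 3 were called between endoderm and mesoderm (8.63% of all genes), and 1 of 3 between ectoderm and mesoderm (5.54%). All 3 mesoderm arrays belong to the class with no intensity over 20000, and no E8.25 endoderm array does. With that class as a block Foxa3 was called higher in endoderm than in mesoderm (adjusted p = 1.44e-06). The class varies within a group only in lung and stomach, so the block is estimated from their arrays. It cannot separate the class from mesoderm. Markers of notochord, node and floor plate, cells in which Foxa2 is known to be expressed, summed to an intensity of 1044 to 2206 in endoderm, 1885 to 2483 in ectoderm and 263 to 514 in mesoderm. Of these 7 markers on the array, 5 were above background on all endoderm arrays and 6 on all ectoderm arrays, and Noto, a notochord marker, was on none in any group. Epithelial markers summed to 18220 to 22143 in endoderm, 2670 to 4627 in ectoderm and 3626 to 7355 in mesoderm. Among them Krt8, Krt18 and Krt19 had higher means in mesoderm than in ectoderm, and Cdh1, Cldn6, Cldn4 and Esrp1 lower ones. Definitive endoderm markers summed to 13388 to 16117 in endoderm, 1134 to 1894 in ectoderm and 577 to 730 in mesoderm, with 6, 4 and 3 of 7 above background on all arrays. The definitive endoderm sums had the order of the Foxa means, but the single markers did not all keep it. Sox17, Pyy and Cer1 had higher means in mesoderm than in ectoderm (Sox17 8.13 against 6.20). Cldn6, Cldn4, Trh and Spink1 had lower ones. Visceral endoderm markers, from the extraembryonic layer that also expresses Foxa2, summed to 2005 to 3068, 469 to 849 and 189 to 347. Mesoderm, where no Foxa gene was above background, had erythroid markers at 4093 to 31686 and endothelial markers at 2772 to 3516, against at most 843 and 353 in the other layers. The part of these cell types in the Foxa differences was not tested.

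From E8.25 endoderm to the E11.5 organs the 3 genes moved differently. The mean over the 6 organs was above E8.25 endoderm for Foxa2 by 1.31 ± 0.15 (SE; 2.48-fold, adjusted p = 1.60e-07). The same difference was 0.46 ± 0.30 (SE, adjusted p = 0.221) for Foxa1 and 0.38 ± 0.16 (SE, adjusted p = 0.0651) for Foxa3. So 1 of the 3 genes was called, where 6.89% of all genes were. For the other two genes that mean joined organs in which they were higher with organs in which they were lower.

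**Figure D2:**
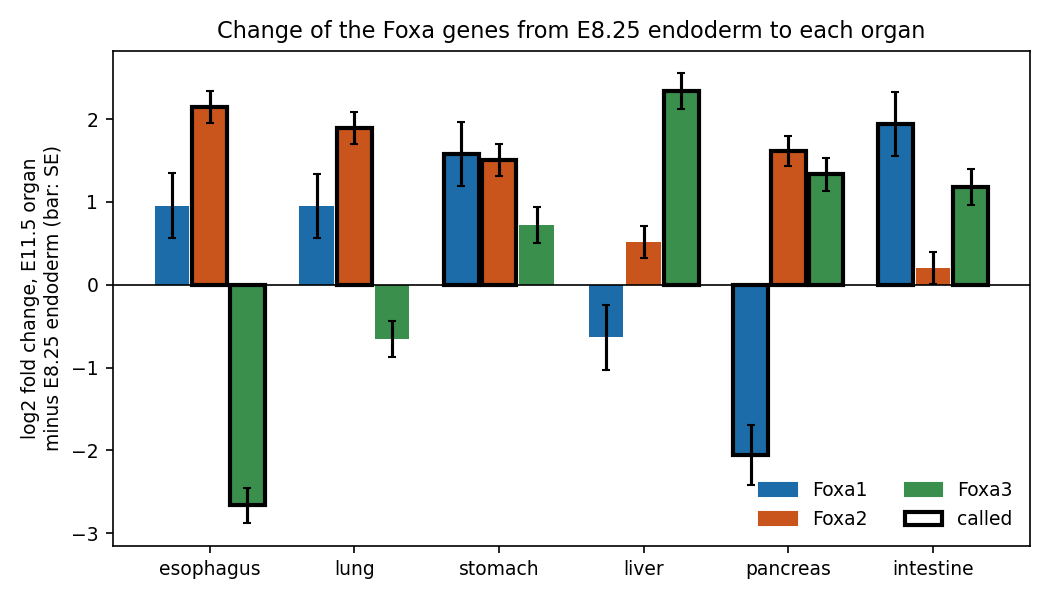
Log2 fold change from E8.25 endoderm to each E11.5 organ (horizontal axis) for the 3 Foxa genes, with SE bars. Black outlines mark called changes. Foxa2 bars are all above 0, Foxa1 runs from 1.94 in intestine to -2.05 in pancreas and Foxa3 from 2.34 in liver to -2.66 in esophagus.

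Foxa2 rose in 4 of the 6 organs. The change from E8.25 endoderm was 2.14 ± 0.19 (SE; 4.42-fold, adjusted p = 5.03e-09) in esophagus, 1.89 ± 0.19 (3.71-fold, adjusted p = 5.65e-08) in lung, 1.51 ± 0.19 (2.85-fold, adjusted p = 1.65e-06) in stomach and 1.61 ± 0.18 (3.05-fold, adjusted p = 1.41e-07) in pancreas. In liver the difference was 0.51 ± 0.19 (SE, adjusted p = 0.0296), under the fold limit, and in intestine it was 0.21 ± 0.19 (SE, adjusted p = 0.458), with overlapping arrays.

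Foxa1 rose in stomach by 1.57 ± 0.39 (SE; 2.98-fold, adjusted p = 0.00265) and in intestine by 1.94 ± 0.39 (3.85-fold, adjusted p = 3.95e-04), and fell in pancreas by 2.05 on the log2 scale (SE 0.36; 4.15-fold lower, adjusted p = 7.26e-05). Its differences were 0.96 ± 0.39 (SE, adjusted p = 0.0537) in esophagus, 0.95 ± 0.39 (adjusted p = 0.0652) in lung and -0.64 ± 0.39 (adjusted p = 0.178) in liver. These 3 were called when arrays were weighted by quality, at 1.04, 1.12 and -1.03, and the esophagus also with no normalisation between arrays, at 1.02.

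Foxa3 rose in liver by 2.34 ± 0.21 (SE; 5.06-fold, adjusted p = 2.69e-09), in pancreas by 1.33 ± 0.20 (2.52-fold, adjusted p = 9.54e-06) and in intestine by 1.18 ± 0.21 (2.26-fold, adjusted p = 1.38e-04). It fell in esophagus by 2.66 on the log2 scale (SE 0.21; 6.34-fold lower, adjusted p = 6.50e-10). The differences in lung (-0.66 ± 0.21, SE, adjusted p = 0.0217) and stomach (0.72 ± 0.21, SE, adjusted p = 0.0107) were under the fold limit. The intestine call was lost without intestine array 1, at 0.98.

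Counted by organ, the Foxa genes called against E8.25 endoderm were 2 of 3 in esophagus (11.1% of all genes), 1 of 3 in lung (8.22%), 2 of 3 in stomach (9.22%), 1 of 3 in liver (18.6%), 3 of 3 in pancreas (10.5%) and 2 of 3 in intestine (8.52%). In esophagus Foxa2 rose and Foxa3 fell, and in pancreas Foxa1 fell while Foxa2 and Foxa3 rose. These 6 comparisons share the same 3 endoderm arrays.

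Across the E11.5 organs all 3 genes differed. Limma's moderated F was 35.5 for Foxa1 (adjusted p = 4.00e-09), 32.4 for Foxa2 (adjusted p = 9.33e-09) and 140 for Foxa3 (adjusted p = 1.05e-14), and 64.8% of all genes passed this test. Differences between the 9 groups made up 95.1% of the sum of squares of Foxa1 over the 28 arrays, 96.5% of that of Foxa2 and 98.4% of that of Foxa3.

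Foxa1 read 11.75, 11.54 and 12.24 in intestine, 11.497, 11.39 and 11.53 in stomach, 11.30, 10.68 and 10.58 in esophagus and 10.70, 10.86 and 10.999 in lung. It read 9.17, 8.82 and 9.80 in liver and 7.07, 6.72, 9.01 and 8.58 in pancreas. The 4 brighter organs lay above every liver and pancreas array, and liver and pancreas arrays overlapped. The order of the means was intestine (11.84 ± 0.36), stomach (11.47 ± 0.07), lung and esophagus (10.85 ± 0.15 and 10.85 ± 0.39), liver (9.26 ± 0.50) and pancreas (7.85 ± 1.12, n = 4). Neighbours among the first 4 did not differ by the test: intestine exceeded stomach by 0.37 (95% interval -0.44 to 1.17), and stomach exceeded lung by 0.62 (-0.18 to 1.43). Intestine exceeded esophagus and lung by 0.99 each, with adjusted p = 0.0632 and 0.0873. The first of these was called without esophagus array 1 (1.21, adjusted p = 0.0486). Each of the 4 exceeded liver, by 1.59 (esophagus and lung; 3.01-fold each, adjusted p = 0.00152 and 0.00173), 2.21 (stomach, 4.63-fold, adjusted p = 5.25e-05) and 2.58 (intestine, 5.98-fold, adjusted p = 7.13e-06). Liver exceeded pancreas by 1.42 ± 0.36 (SE, 2.67-fold, adjusted p = 0.00271). The SE of this and the other pancreas differences uses the spread shared by all 9 groups. The pancreas SD of 1.12 was the largest of any organ, so that SE may be too small here.

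Foxa2 read 9.07, 9.27 and 9.35 on the esophagus arrays, 9.12, 8.84 and 8.98 on those of lung, 8.19, 8.28, 9.34 and 8.97 in pancreas and 8.63, 8.56 and 8.60 in stomach. It read 7.48, 7.57 and 7.74 in liver and 7.08, 7.26 and 7.53 in intestine. All arrays of the first 4 organs lay above all those of liver and intestine. The means were 9.23 ± 0.14, 8.98 ± 0.14, 8.70 ± 0.55 (n = 4), 8.59 ± 0.04, 7.60 ± 0.13 and 7.29 ± 0.23 in that order, and no neighbours in it were called apart. Esophagus exceeded lung by 0.25 (95% interval -0.15 to 0.65), and liver exceeded intestine by 0.31 (-0.09 to 0.71). Esophagus exceeded intestine by 1.94 (3.83-fold, adjusted p = 2.70e-08) and liver by 1.63 (3.10-fold, adjusted p = 1.81e-07). Pancreas exceeded intestine by 1.40 (2.65-fold, adjusted p = 1.74e-06) and liver by 1.10 (2.14-fold, adjusted p = 2.54e-05). The liver call was lost without pancreas array 3, at a difference of liver from pancreas of -0.89. Stomach exceeded liver by 1.00 (adjusted p = 1.75e-04), just under the 2-fold limit.

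Foxa3 read 11.34, 11.51 and 11.45 in liver, 10.82, 10.59, 10.29 and 10.02 in pancreas, 10.66, 10.33 and 9.83 in intestine and 9.38, 10.03 and 10.05 in stomach. It read 8.248, 8.54 and 8.54 in lung and 6.35, 6.37 and 6.58 in esophagus, the last just above thresholds near 6.3. Liver arrays lay above all others, those of pancreas, intestine and stomach overlapped, and lung and esophagus each stood apart below them. Pancreas and intestine differed by 0.15 (95% interval -0.26 to 0.57), stomach and intestine by -0.46 (-0.90 to -0.01, adjusted p = 0.217) and stomach and pancreas by -0.61 (adjusted p = 0.0302), and none was called. The other 12 pairs of organs were. Esophagus differed from liver by -5.003 ± 0.21 (SE; 32.1-fold lower, adjusted p = 2.28e-15). Liver exceeded lung by 2.99 (7.97-fold, adjusted p = 3.70e-11) and stomach by 1.62 (3.07-fold, adjusted p = 1.15e-06). Its excess over pancreas, 1.01 ± 0.20 (SE, adjusted p = 2.28e-04), was 0.87 once replicate numbers entered as a block (adjusted p = 0.00184). Pancreas array 4 is the only array with its replicate number, so for this difference the block in effect leaves that array out. The call over pancreas was lost without liver array 2 or 3, or pancreas array 3 or 4, at 0.87 to 1.00, and with array weights (0.92). The call over intestine (1.16) was lost without intestine array 3, at 0.94.

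Read against the whole array, pairs of organs called for the Foxa genes fell as follows. Esophagus differed from lung in 1 of 3 genes (6.08% of all genes), from stomach in 1 (5.73%), from liver in 3 (17.6%), from pancreas in 2 (10.1%) and from intestine in 2 (8.11%). Lung differed from stomach in 1 (3.52%), from liver in 3 (15.1%), from pancreas in 2 (7.01%) and from intestine in 2 (5.76%). Stomach differed from liver in 2 (15%), from pancreas in 1 (6.22%) and from intestine in 1 (4.07%). Liver differed from pancreas in 3 (13.8%) and from intestine in 2 (15.3%), and pancreas from intestine in 2 (6.59%). The single gene was Foxa3 between esophagus and lung, esophagus and stomach, and lung and stomach, Foxa1 between stomach and pancreas, and Foxa2 between stomach and intestine.

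Markers of other cells moved with some of these groups. Esophagus, where Foxa3 was lowest and Foxa2 highest, had a summed mesenchymal marker intensity of 9037 to 10250, against 576 to 2431 in the other organs. The same number of these markers, 9 of 10, was above background on all arrays of esophagus and of liver. In esophagus the brightest were Dcn (mean 12.45) and Acta2 (11.15). Dcn, Acta2, Twist1, Pdgfra and Col1a1 had higher means in esophagus than in liver, and Lum, Col3a1, Pdgfrb, Col1a2 and Vim lower ones. Liver, where Foxa3 was highest and where Foxa1 and Foxa2 were low, had a summed epithelial marker intensity of 3898 to 5349, against 14311 to 27483 in the other organs. Cdh1, Krt19, Cldn6, Cldn4 and Esrp1 had their lowest organ means in liver, but Krt8 and Krt18 did not. Liver's leukocyte markers summed to 2254 to 2838, against at most 440 elsewhere at E11.5, and its erythroid markers to 2268 to 11065. Intestine, with the highest Foxa1, had erythroid markers at 6906 to 15153. The part of these cells in the Foxa levels was not tested. Liver arrays all lie in the class with no intensity over 20000, and within that class lung array 1 and stomach array 1 gave the same directions: Foxa1 was higher than in liver by 1.44 and 2.23, Foxa2 by 1.52 and 1.04, and Foxa3 differed by -3.18 and -2.06. That comparison was chosen after seeing the data, and its single lung and stomach arrays are assumed to vary like those of the other groups.

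The 3 genes thus changed unequally between organs. The within-array difference of each pair of genes was compared across the 19 organ arrays by a permutation test (100000 relabellings, upper tail, 3 pairs). F was 64.1 for Foxa1 against Foxa2, 37.9 for Foxa1 against Foxa3 and 63.5 for Foxa2 against Foxa3, each with a permutation p = 1e-05, the smallest this number of relabellings can give, and the same after adjustment over the 3 pairs. How often other pairs of genes reach this p was not counted. Since 64.8% of all genes differed across organs by the F test, it is not shown to be particular to this family. Intestine and pancreas were farthest apart for Foxa1 minus Foxa2, at 4.55 ± 0.24 and -0.85 ± 0.60. For Foxa1 minus Foxa3 they were esophagus and pancreas, at 4.42 ± 0.48 and -2.58 ± 1.42, and for Foxa2 minus Foxa3 esophagus and liver, at 2.80 ± 0.09 and -3.84 ± 0.12. Only the shift of such a difference between organs has a meaning, because its size also holds the brightness of the probes.

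**Figure D3:**
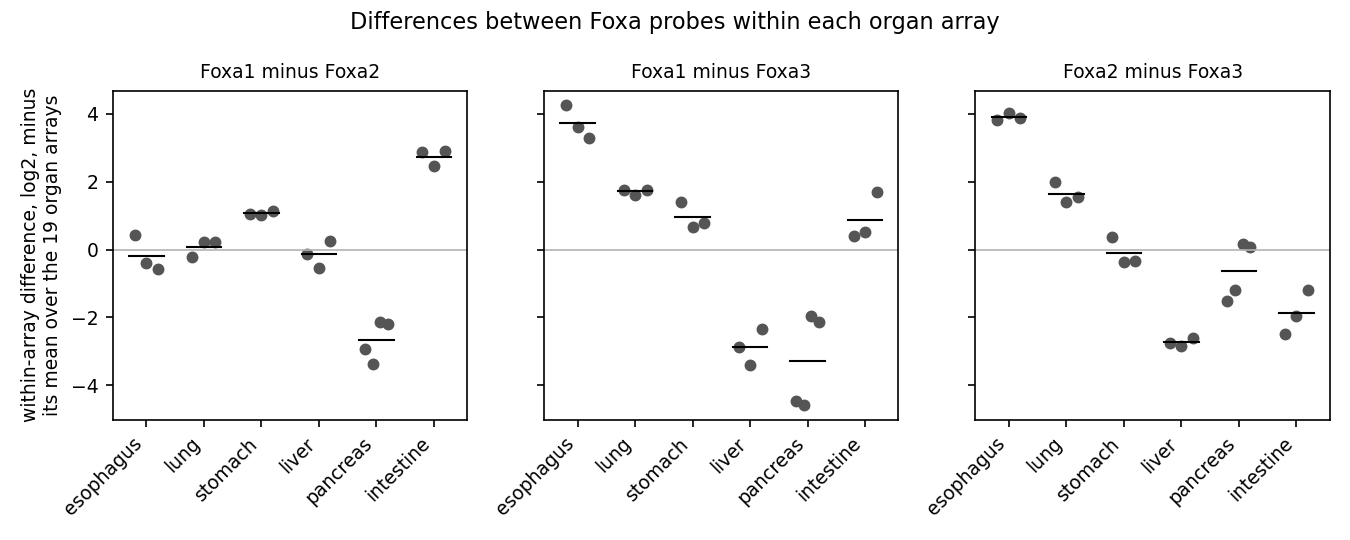
Within-array difference between 2 Foxa probes in log2 intensity, minus its mean over the 19 organ arrays, in each E11.5 organ (horizontal axis). Points are arrays and lines organ means. Intestine and pancreas lie at opposite ends for Foxa1 minus Foxa2, and esophagus and liver for Foxa2 minus Foxa3.

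As a description over group means, the Pearson correlation was 0.60 between Foxa1 and Foxa2 over the 9 groups and -0.10 over the 6 organs. It was 0.37 and -0.37 for Foxa1 and Foxa3, and 0.22 and -0.76 for Foxa2 and Foxa3. The points share arrays and their normalisation.

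The 4 pancreas arrays differed more among themselves than those of any other organ for Foxa1, with an SD of 1.12. Arrays 3 and 4 were higher than arrays 1 and 2 for Foxa1 and Foxa2 and lower for Foxa3. Pdx1, the homeobox gene of the pancreatic bud, read 10.03, 10.01, 10.93 and 10.92 on the same arrays, and Neurog3, the gene of endocrine progenitors, 9.24, 8.68, 10.45 and 9.49. Both were higher on arrays 3 and 4, in the same direction as Foxa1 and Foxa2. Cdh1, which encodes E-cadherin, read 10.56, 10.89, 10.49 and 10.46, and Cpa1, an early marker of the acinar lineage, 12.86, 12.64, 12.44 and 12.57. Only array 3 of the 4 had the low background described above, and the part of array background or of tissue makeup in this spread was not tested.

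**Figure D4:**
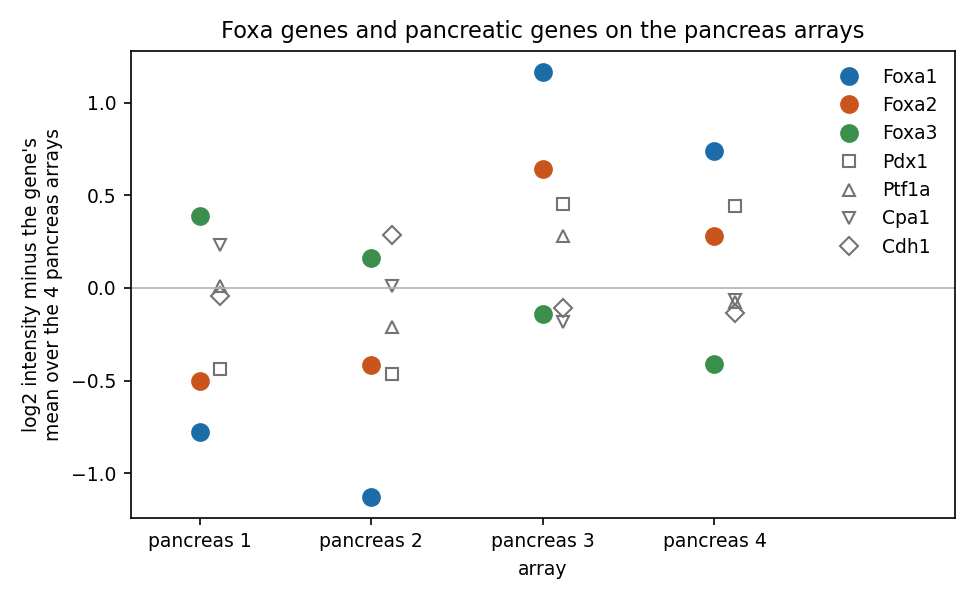
Log2 intensity on each of the 4 pancreas arrays (horizontal axis) minus the gene's mean over them, for the 3 Foxa genes (filled) and 4 pancreatic or epithelial genes (open). Foxa1, Foxa2 and Pdx1 are above their means on arrays 3 and 4 and Foxa3 is below its mean there.

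The genes whose group means followed each Foxa gene most closely were ranked by Pearson's r among the other genes tested. The top of such a ranking over few group means has a high r in part by selection. Over the 9 groups these were Gstt3 (0.969), Hook2 (0.930), Cdk3 (0.908), Tmprss2 (0.901) and Agrn (0.900) for Foxa1. Gstt3, a glutathione transferase gene, ran from 7.07 in mesoderm to 10.40 in stomach, and Tmprss2, an epithelial serine protease gene, from 5.97 in mesoderm to 11.08 in E8.25 endoderm. For Foxa2 they were Cdc42se1 (0.943), Galnt2 (0.942), Ncoa1 (0.941), Esrp2 (0.940) and Lmbr1 (0.939), with Esrp2, an epithelial splicing regulator, between 6.03 in ectoderm and 7.59 in lung. Cdk3, from 6.04 to 6.38, and Lmbr1, from 5.90 to 6.43, stayed near the detection thresholds. For Foxa3 they were Mgrn1 (0.958), Pla2g12a (0.957), Tuba4a (0.953), Cpn1 (0.952) and Habp2 (0.947). Cpn1 and Habp2 encode plasma proteins made by the liver, but neither had its highest mean in liver here. Cpn1 ran from 6.25 in esophagus to 9.69 in stomach, and Habp2 from 5.99 in mesoderm to 11.15 in pancreas.

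Over the 7 endoderm groups the closest genes were others. They were Akap8 (0.977), Hsdl1 (0.970), Polr3a (0.969), Ltbp1 (0.954) and Twf2 (0.943) for Foxa1, of which only Ltbp1 spanned over 1 log2 unit, from 6.64 in pancreas to 8.71 in intestine. For Foxa2 they were Tmem128 (0.981), Trpt1 (0.971), Dynlrb1 (0.965), Sfxn5 (0.956) and Erdr1 (0.955), and none spanned 1 log2 unit. Polr3a, from 6.28 to 6.47, and Sfxn5, from 6.22 to 6.58, stayed near the detection thresholds. For Foxa3 they were Gna11 (0.963), Pus1 (0.961), Fam160b1 (0.959), Dhrs13 (0.954) and As3mt (0.950), each lowest in esophagus and highest in liver. As3mt, an arsenic methyltransferase gene, ran from 6.65 to 7.90.

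Beside the Foxa genes, 3 lists of related genes were counted. The share of all genes called higher in endoderm was 1.93% against ectoderm and 3.68% against mesoderm, and the share lower was 0.901% and 4.95%; between ectoderm and mesoderm 2.02% were higher and 3.52% lower. From E8.25 endoderm to the organ mean 3.42% rose and 3.47% fell. By organ, esophagus had 6.07% of genes rising and 5.08% falling, lung 4.0% rising and 4.22% falling, and stomach 4.88% rising and 4.34% falling. Liver had 9.16% rising and 9.4% falling, pancreas 5.46% rising and 5.08% falling, and intestine 4.88% rising and 3.64% falling. All genes counted, in the lists and in these shares, were above background on every array of at least 1 group. A gene bright in 1 organ alone entered through that organ, which favours its rise there. The counts of the lists stand against these shares, and nothing particular to a list is read from them.

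Of 38 other forkhead genes on the array, 24 were tested, and 12 of the 24 passed the F test across organs, against 64.8% of all genes. Between endoderm and ectoderm 2 were higher and 2 lower, with a median difference of 0.05 against -0.02 over all genes. Foxi2 was higher in endoderm by 2.25 (adjusted p = 1.11e-05) and Foxq1 at least 2.13-fold (adjusted p = 2.53e-04), and Foxb1 was lower (-1.69, adjusted p = 0.00165). Between endoderm and mesoderm 2 were higher and 2 lower (median -0.10 against 0.05): Foxc2 and Foxd1, genes of the mesoderm, were at least 12.2-fold and 6.14-fold lower in endoderm. From E8.25 endoderm to the organ mean none of the 24 rose and 3 fell, namely Foxd4 (at least 9.23-fold), Foxi2 (at least 7.89-fold) and Foxc1 (at least 2.71-fold). In single organs Foxe1, a gene of the pharynx and esophagus, rose by 3.28 in esophagus (adjusted p = 1.50e-11) and Foxp2, a lung epithelial gene, at least 4.37-fold in lung (adjusted p = 3.66e-13). In liver none of the 24 was called higher and 4 were lower, where 9.16% and 9.4% of all genes were.

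Of 20 other gut and liver transcription factor genes on the array 18 were tested. Between endoderm and ectoderm, where Foxa1 and Foxa3 were higher, 5 were higher and none lower (median 0.08 against -0.02 over all genes). Sox17, the definitive endoderm factor, was at least 5.79-fold higher, Isl1 higher by 2.66 and Hhex by 2.04. Between endoderm and mesoderm 1 was lower, Gata6 (-2.15), and none higher. From E8.25 endoderm to the organ mean 7 rose and 3 fell (median 0.77 against -0.02). Cdx2 was at least 8.72-fold lower, Sox17 at least 5.47-fold lower and Hnf4a higher by 1.65. The organ mean hides intestine, where Cdx2 averaged 12.12 against 10.54 in E8.25 endoderm.

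Hnf4a, another liver-enriched factor, had its highest mean in liver and its lowest in esophagus, as Foxa3 did at E11.5. It rose by 4.25 in liver (adjusted p = 1.15e-12), to a mean of 11.02, and by 2.45 in intestine (adjusted p = 4.75e-08). Its esophagus and lung means, 6.29 and 6.35, lay near background, with 2 and 1 of 3 arrays above it. Their order therefore means little. Foxa3 was above background on all 3 lung arrays. In liver 8 of the 18 rose and 5 fell (9.16% and 9.4% of all genes; median 0.46 against -0.10), and in pancreas, where Foxa2 and Foxa3 rose, 9 rose and 4 fell (1.12 against -0.06), led by Pdx1, at least 17.7-fold. In esophagus 4 rose and 5 fell (median -0.28). The counts were 4 and 4 for lung (0.03), 4 and 4 for stomach (0.17), and 6 and 3 for intestine (0.41). Nkx2-1, the lung and thyroid factor, rose by 5.77 in lung.

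**Figure D5:**
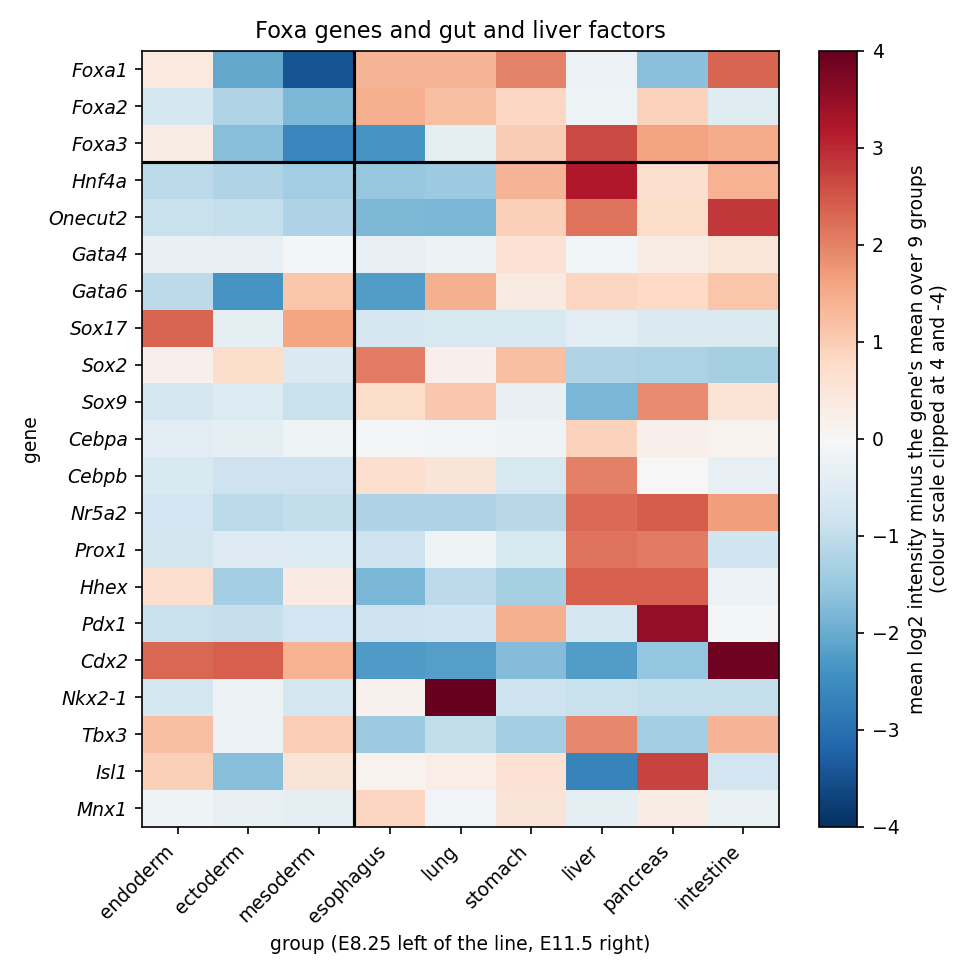
Group means of log2 intensity for the 3 Foxa genes (above the horizontal line) and 18 gut and liver factors, each minus the gene's own mean over the 9 groups (columns, E8.25 left of the vertical line), clipped at 4 and -4. Means below the detection threshold are drawn too. Foxa3 is highest in liver, as are Hnf4a and Cebpb, and Foxa1 is highest in intestine.

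Of 23 genes on the array known in mouse to be bound by Foxa factors or to depend on them, 15 were tested; Alb, Tat, Pck1, G6pc, Cps1, Scgb1a1, Muc5ac and Agr2 were not. Between endoderm and ectoderm 2 were higher and none lower (median 0.10 against -0.02): Ttr, the transthyretin gene, by 2.63 (adjusted p = 3.24e-05) and Cdh1 by 1.90 (adjusted p = 6.72e-06). Between endoderm and mesoderm 5 were higher and none lower (0.16 against 0.05), with Ttr at 3.94, Cdh1 at 3.52 and Shh, the Sonic hedgehog gene, at least 5.97-fold. Between ectoderm and mesoderm 4 were higher and none lower.

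In liver, where Foxa3 was highest, 7 of the 15 rose and 2 fell against E8.25 endoderm (9.16% and 9.4% of all genes; median 0.21 against -0.10). Serpina1b, an alpha-1-antitrypsin gene, rose by 6.38 (adjusted p = 1.09e-15), Afp, the alpha-fetoprotein gene, by 6.19 (adjusted p = 2.96e-13) and Apoa1, an apolipoprotein gene, by 5.18 (adjusted p = 2.13e-15). In pancreas 6 rose and 2 fell (0.59 against -0.06), and Gcg, the glucagon gene, rose at least 284-fold (adjusted p = 7.34e-18). In intestine, where Foxa1 was highest, 6 rose and none fell (0.47 against -0.04), Serpina1b by 5.70 and Shh by 3.69. In stomach 4 rose and none fell (0.40). In lung 3 rose and 2 fell (0.13), among them Sftpc, the surfactant protein C gene, at least 6.84-fold higher, and in esophagus 1 rose and 2 fell (0.05). Gcg was above background on every array only in pancreas, and Sftpc only in lung. Each was tested because of that organ, so its rise there is not a separate result.

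Shh was bright in the same 4 organs as Foxa1. Its group means were 12.68 in intestine, 12.03 in esophagus, 11.30 in lung and 11.20 in stomach, and it was not above background in liver or pancreas (means 5.82 and 6.27), the 2 organs with the lowest Foxa1. Ttr was dim in the 2 organs with the lowest Foxa3: against E8.25 endoderm it changed by -4.06 in esophagus (adjusted p = 1.06e-08) and by -3.74 in lung (adjusted p = 5.70e-08). Ttr reached its highest means in liver (13.69) and pancreas (13.64). Not every gene of the list ran alongside a Foxa gene in this way. Apoa1 averaged 6.91 in pancreas, where Foxa3 rose, against 8.36 in E8.25 endoderm. Cdh1 averaged 10.60 in pancreas, the organ with the lowest Foxa1. These levels are set side by side, and no dependence of one gene on another was tested.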

How the data were processed

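Per the labels' protocols, Trizol extraction was followed by TotalPrep amplification with a biotin label. The deposited intensity values are linear; BeadStudio is named in the submitters' processing notes without a version, and no source used here gives the background and scaling steps. A second deposited table, whose 112 columns could not be tied to samples, was not used. Of 25697 probes, 23978 had 1 gene symbol and 1719 none in GEO's platform annotation. In limma 3.58.1 (R 4.3.3, statmod 1.5.0), the intensities were background-corrected by normexp without controls (offset 50), quantile-normalised and taken to log2. The probe with the highest mean stood for each symbol, and 9651 of 16593 symbols that were above background on every array of at least 1 group were tested with 9 group means and eBayes. On simulated data the same code was checked for recovery of known changes.

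The members, the lists and the markers were chosen with earlier results of these data known. Named genes were the members, up to 3 genes per list with the largest called change in a comparison, and the 5 genes most like each member. The pancreas array values of Neurog3, Cpa1 and Cdh1, and the means of listed genes outside that rule, were chosen after values were seen. Replicates are labelled as biological replicates, each a pool of embryos. The labels do not say that equal replicate numbers share a litter or day. Same-numbered samples deviated together (all correlations over 0.1) in 7 of 36 pairs of groups, with correlations from -0.414 to 0.879 over all pairs. The 7 include liver and pancreas, lung and stomach, and pancreas and intestine. Alternatives were background correction, normalisation, filter, blocks, array weights, prior and leaving out arrays.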

Additional observations from a re-analysis of the deposited data

Results flagged for a closer look

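A pair of organs was flagged when a gene was called in opposite directions against E8.25 endoderm and called between the organs. Foxa1 and Foxa3 had such pairs. Being past the threshold is part of this rule. The adjusted p values below are those of the organ pairs in limma's fit, where the endoderm arrays cancel, and add no separate support. For Foxa1, the change to stomach exceeded that to pancreas by 3.63 on the log2 scale (adjusted p = 3.65e-08), and the change to pancreas differed from that to intestine by -3.996 (adjusted p = 5.65e-09). For Foxa3, the change to esophagus differed from that to liver by -5.003 (adjusted p = 2.28e-15), from that to pancreas by -3.996 (adjusted p = 7.66e-14) and from that to intestine by -3.84 (adjusted p = 8.67e-13). Every array of these organs lay on the stated side of the other organ's arrays. Dixon's test for 1 outlying sample set no pancreas array apart, but it cannot see a split of 2 arrays against 2, and groups of 3 arrays were not tested.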

How the results depend on the processing

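Of 52 Foxa results past the threshold, 2069 of 2099 values under alternatives kept direction and side, 29 lost the call and 1 took the other sign. Of 29 not past it, 1147 of 1187 did so, 23 gained a call and 17 took the other sign. Many of these values come from leaving out an array of a group that is not compared, which usually changes a difference little. The counts therefore overstate how firm the results are. Foxa3 in liver against pancreas, for example, lost its call under 7 settings, of which the replicate block and leaving out pancreas array 4 are nearly the same. Among the results on endoderm against ectoderm or mesoderm, the organ mean and the organ F test, the lost calls were Foxa2 in endoderm against mesoderm with no normalisation between arrays (0.95, adjusted p = 0.0017) and 3 values of the other Foxa2 probe, which is not above background: 0.0099 for endoderm against mesoderm, 0.0020 for the organ mean against endoderm and an F of 0.982. That probe also took the other sign in ectoderm against mesoderm (-0.0081), stomach (-0.0049), liver (-0.0031) and intestine (-0.103) against E8.25 endoderm, lung against pancreas (-0.013) and stomach against liver (-0.0018).

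Differences near 0 changed sign. Foxa1 in esophagus against lung was -0.041 with 75th percentile scaling, -0.031 with the intensity class as a block, -0.089 with array weights, -0.079 on the arrays with an intensity over 20000, an alternative chosen after seeing the data, and -0.22 to 0.14 leaving out 1 array. Foxa2 in stomach against pancreas was 0.024 with 75th percentile scaling, 0.23 with array weights, 0.11 without the 2 low-background arrays and -0.27 to 0.11 leaving out 1 array. Foxa3 in pancreas against intestine was -0.023 without the low-background arrays and -0.071 to 0.35 leaving out 1 array. The cause was not tested. Foxa2 in liver against pancreas lost its call with 75th percentile scaling (-0.98), array weights (-0.76) or without the low-background arrays (-0.90). Foxa3 in liver against pancreas lost its call with array weights (0.92) or without the low-background arrays (0.96), and in liver against intestine without the latter (0.94). Foxa2 in stomach against liver was called under 11 settings, at up to 1.21.

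With the replicate number as a block, Foxa3 in liver against pancreas was 0.87, and no other call of a Foxa gene changed. For this difference the block in effect leaves out pancreas array 4, the only array with that number. Leaving that array out also gave 0.87. Calls over all genes rose by up to 1.99 times without background correction (over 1.5 times in 25 of 26 comparisons, for example 542 against 273 for endoderm against ectoderm), by up to 1.96 times with receptor probes as controls (23 comparisons) and by up to 1.62 times with an offset of 16 (5 comparisons, 443 against 273 in that one). On the 8 arrays with no intensity over 20000, lung against stomach gave 211 calls against 340. The 3 or 4 arrays a group and the dim Foxa2 probe, near background at E8.25, limit these results.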
